A study of Homo sapiens with 27 samples.

Results

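Transcript levels of 10 keratin genes were followed across the 9 groups of an RNA-sequencing study in which the transcription factor ZEB1 was repressed in 2 human triple negative breast cancer cell lines. The genes were taken by name from the deposited gene table, as 4 luminal keratins (KRT7, KRT8, KRT18 and KRT19), 4 basal keratins (KRT5, KRT14, KRT15 and KRT17), the hair-type keratin KRT81, and KRT80. All 10 were found among the 57165 genes of the table. SUM159 and MDA-MB-231 are both used as models of mesenchymal, claudin-low disease, and both express ZEB1.

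In each line, untransduced wild type (WT) cells stood beside cells with the lentiviral vector pLV dCas9-KRAB, which encodes a nuclease-dead Cas9 joined to the KRAB repressor domain and is kept by puromycin selection. The vector carried no targeting gRNA (No gRNA), gRNA 4 alone against the ZEB1 promoter (gRNA 4), or the combination of all ZEB1 gRNAs (All gRNA). For 6 MDA-MB-231 libraries the labels conflict: set 1 has titles naming gRNA 4 and a data column naming the combination, and set 2 has the opposite. Both sets are therefore kept under those neutral names, and neither is assigned to a gRNA condition. SUM159 WT, No gRNA, gRNA 4 and All gRNA were sequenced in run 1, and every MDA-MB-231 group in run 2, as was a further SUM159 WT group. Each group had 3 libraries, made from replicates which the methods describe as individual clones, so that p-values measure the spread between such replicates. For the transduced groups line and run cannot be told apart.

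The 27 libraries held 15461200 to 21473757 estimated counts, and log2 abundances of replicates correlated across genes at r = 0.991 to 0.994, with 0 pairs of identical libraries. Levels are given as CPM, the count divided by the TMM-scaled size of the library. A difference is termed called when TREAT, limma's test against a log2 fold change of 1, gave a Benjamini-Hochberg adjusted p-value under 0.05 over all genes tested, and the moderated adjusted p-value is limma's test of the same fit against 0. SE is the standard error of a log2 fold change. The targeted gene followed its labels. In SUM159, ZEB1 was at 70.8 to 77.3 CPM in No gRNA, 2.57 to 4.56 with gRNA 4 and 0.376 to 1.03 with All gRNA. The range in MDA-MB-231 was 104.2 to 121.9 CPM in No gRNA, 4.75 to 5.74 in set 1 and 3.71 to 5.43 in set 2. Of the markers of a claudin-low line, VIM, CD44, ZEB1 and SNAI2 were all present in the control libraries of both lines. EPCAM, one of the genes such lines lack, was at 0 to 0.345 CPM in the SUM159 controls and at 10.9 to 14.3 CPM in those of MDA-MB-231, where CLDN4 also reached 63.6 to 70.3 CPM. Of the other such genes in the MDA-MB-231 controls, CLDN7 was at 15.4 to 42.4 CPM, CLDN3 at 0.381 to 1.03 and CDH1 at 0 to 1.02. In the SUM159 controls CLDN4, CLDN7, CDH1 and CLDN3 reached at most 1.10, 0.197, 0.143 and 0 CPM. Of 7 genes of a luminal line, 4 were over 1 CPM in at least 1 control library of SUM159 and 5 in MDA-MB-231. Among them, XBP1 was at 296.3 to 439.8 CPM in SUM159 and 64.8 to 283.9 in MDA-MB-231. ESR1 reached at most 0.154 and 0.185 CPM in the 2 lines, and PGR 0.0203 and 0.960. Over 1 CPM in at least 1 control library were 1 of 4 leukocyte genes in each line (CD14, at most 1.78 CPM in SUM159 and 5.49 in MDA-MB-231) and 3 of 5 stromal genes in each line. The stromal COL1A1 was at 37.4 to 261.2 CPM in SUM159 and 3.89 to 7.37 in MDA-MB-231, PDGFRA at 38.2 to 125.8 and 0 to 1.36, and LUM at 0 in both. Their part in the keratin results was not tested. The RNA is from bulk cultures, in which fewer cells of a type and less RNA per cell cannot be told apart.

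Keratins are the intermediate filaments of epithelial cells. Type I and type II keratins pair with each other to form the filament, and the partners are characteristic of the cell: KRT8 (type II) and KRT18 (type I) pair in simple, luminal epithelium, where KRT7 and KRT19 often join them, while KRT5 and KRT14 pair in basal and myoepithelial cells. Loss of keratins in favour of vimentin is a classical feature of epithelial-mesenchymal transition, and ZEB1 is a repressor of epithelial genes that binds E-box sequences. Among the 10 genes, KRT5, KRT7, KRT8, KRT80 and KRT81 are of type II and lie on chromosome 12. KRT14, KRT15, KRT17 and KRT19 are of type I and lie on chromosome 17, and KRT18 is the type I gene that lies outside that cluster, beside KRT8 on chromosome 12.

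Promoter windows from RefSeq, of 250 bases before and 50 after the start of the gene, were at hand for KRT5 and KRT8. An E-box of the form CAGGTG, searched on both strands (CACCTG on the other), was found once for KRT5 and 0 times for KRT8. Of all 35116 windows, 7231 (20.6%) held at least 1 such match. The KRT5 stretch is shown because it is the only match among these genes, with the E-box in capitals, at position -130 from the start (GRCh38.p14, chr12:52520507-52520536, minus strand).
KRT5: cacaccactgtgCAGGTGtgaccggtgagc
The start is that of the RefSeq window. The annotation used for gene bounds begins KRT5 further out, at 52520530, so that the E-box lies inside those bounds. A match of letters is a description and no evidence of binding.

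The lines carried different keratins before any targeting. Levels are compared between genes only per length, as CPM divided by the kilobases of the canonical transcript. In SUM159 No gRNA cells KRT7 was at 515.7 ± 21.5 CPM per kb (SD, n = 3), KRT18 at 149.1 ± 5.82, KRT8 at 82.5 ± 1.44 and KRT80 at 53.2 ± 0.539. These 4 did not overlap each other, and the remaining 6 keratins were each at 3.29 CPM per kb or less. MDA-MB-231 No gRNA cells had KRT18 on top, at 266.3 ± 2.59 CPM per kb. KRT7 (150.8 ± 10.99) and KRT8 (148.3 ± 4.11) followed with overlapping libraries, and then KRT19 (120.7 ± 5.36), KRT81 (48.6 ± 3.44) and KRT80 (20.6 ± 0.348).

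Summed over the 10 genes, the level per length was 806.5 ± 19.9 CPM per kb in SUM159 No gRNA and 761.3 ± 17.1 in MDA-MB-231 No gRNA. The balance of types differed more than the sum. The ratio of type II to type I was 4.12 to 4.56 over the SUM159 No gRNA libraries and 0.903 to 0.982 over those of MDA-MB-231, where both types were nearly even. KRT7 alone made 63.9 ± 1.15% of the sum in SUM159 No gRNA, against 19.8 ± 1.14% in MDA-MB-231. These shares leave out KRT75 and KRT6A, which are described with the other keratins: the 10 genes made 79.6 to 80.6% of all keratin signal per length in SUM159 No gRNA and 97.4 to 97.6% in MDA-MB-231 No gRNA.

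**Figure D1:**
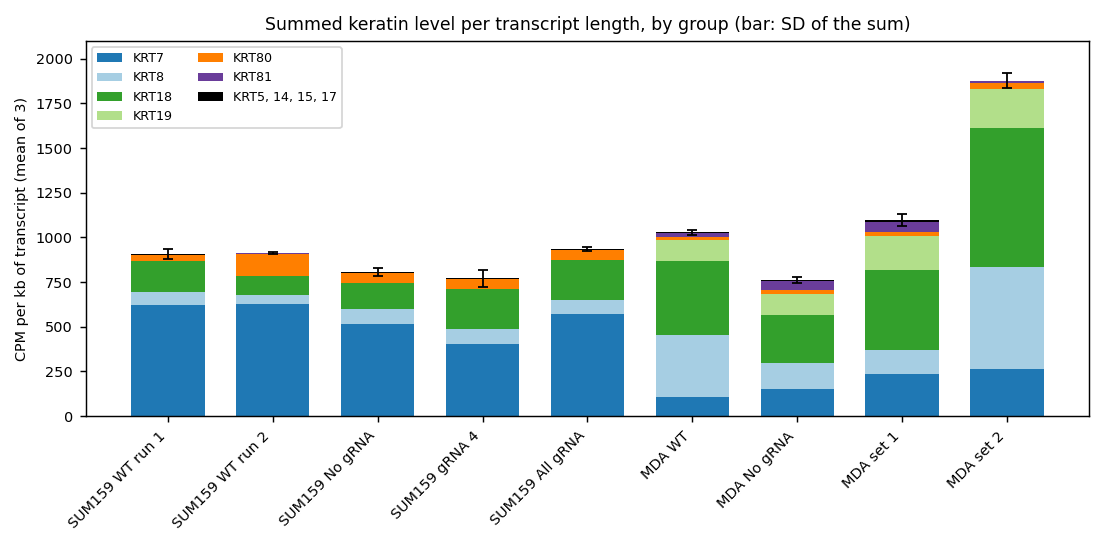
Stacked bars give the mean level per transcript length (CPM per kb, n = 3 libraries) of each keratin in the 9 groups (SUM159 and MDA, the latter for MDA-MB-231), with the SD of the summed level as error bar. KRT7 fills most of each SUM159 bar, while KRT18 and KRT8 lead in MDA-MB-231 WT and set 2, the group with the highest sum (1877 CPM per kb).

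WT cells of the 2 lines were compared inside run 2, to keep line apart from run. In this fit 7 of the 10 keratins had enough counts to be tested, and TREAT called all 7, where 29.1% of all 15110 genes were called. KRT15 and KRT19 passed the filter through MDA-MB-231 alone, so that the 7 calls are not weighed against that share. KRT7 (1008, 1016 and 1034 CPM in SUM159 and 185.0, 173.7 and 172.7 in MDA-MB-231) was higher in SUM159, with a log2 fold change of 2.52 (SE 0.0344, TREAT adjusted p = 2.07e-07). KRT80, an epithelial type II keratin, was likewise higher in SUM159, by 2.66 (SE 0.0383, TREAT adjusted p = 2.21e-07). The other 5 were higher in MDA-MB-231.

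Among these 5, KRT8 was lower in SUM159, with a log2 fold change of -2.81 (SE 0.0533, TREAT adjusted p = 5.52e-07), at 80.8 to 92.4 CPM against 602.3 to 623.4. Its partner KRT18 was lower by -1.93 (SE 0.0371, TREAT adjusted p = 1.73e-06), at 152.5 to 157.6 CPM against 568.8 to 599.3. KRT81 was at 3.81 to 4.16 CPM against 39.3 to 41.0 (log2 fold change -3.31, SE 0.114, TREAT adjusted p = 3.65e-06). KRT19, a simple epithelial keratin, had 2.00 to 4.45 counts per library in SUM159 WT of run 2 and 2632 to 3017 in MDA-MB-231 WT. KRT15 had 0 to 3.74 counts in SUM159 against 64.7 to 78.2 in MDA-MB-231. Both were called, but their fitted log2 fold changes (-9.36 and -6.05) rest on a few counts in SUM159 and are no bounds.

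**Figure D2:**
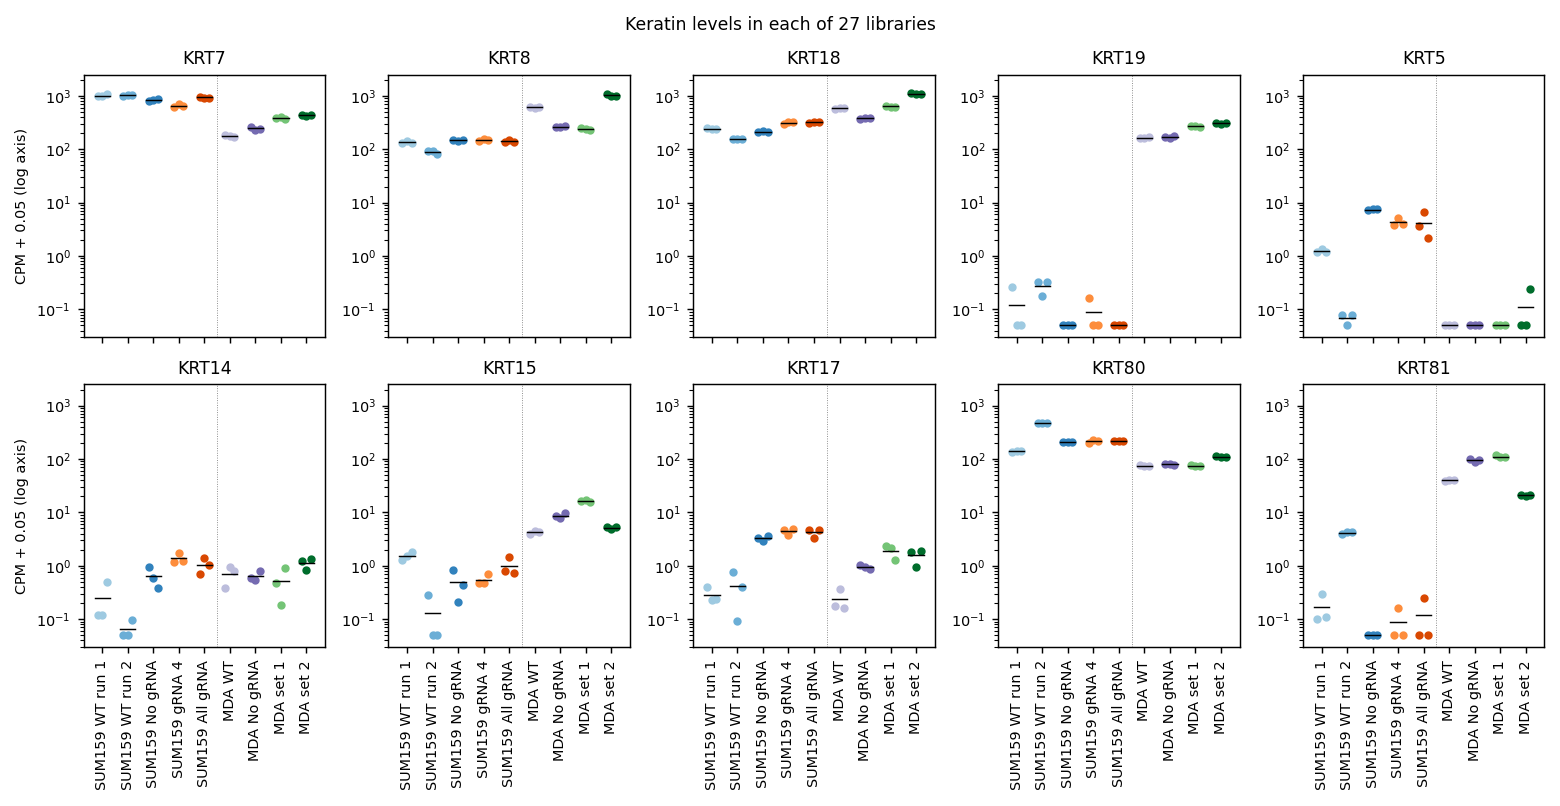
Each panel shows 1 keratin in all 27 libraries (points) with the group mean (line), as CPM plus 0.05 on a log axis. SUM159 groups stand left of the dotted line and MDA-MB-231 groups right of it. KRT19 and KRT81 are high on the right and at or near the bottom on the left, except KRT81 in SUM159 WT of run 2, and KRT5 lies above the bottom on the right in 1 library of set 2 alone.

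In No gRNA cells the same 2 genes separated the lines with bounds that can be given. In SUM159 No gRNA neither KRT19 nor KRT81 had a count above 0 in any library. Against a floor of 3 counts per library, MDA-MB-231 No gRNA was at least 969-fold higher for KRT19 and at least 542-fold higher for KRT81. The KRT81 bound takes the assignment of reads as given. KRT86, which shares sequence with KRT81, had 6.26 to 17.7 counts per library in SUM159 No gRNA. KRT5 went the other way, with 0 counts in every MDA-MB-231 No gRNA library and a level at least 44.03-fold higher in SUM159 No gRNA. Such differences between No gRNA cells include any difference between runs. At these depths a level under the floor was not detectable, which does not show absence.

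With ZEB1 targeted in MDA-MB-231, KRT7, KRT18 and KRT19 rose in both sets and KRT8 in set 2 alone, by tests against No gRNA. KRT8 (ENSG00000170421, GRCh38 chromosome 12, 52897187 to 52949954, minus strand) was at 262.5, 258.6 and 272.8 CPM in No gRNA. It was at 251.3, 243.6 and 232.5 CPM in set 1 and at 1057, 988.5 and 991.6 CPM in set 2. All set 1 libraries thus lay below No gRNA and all set 2 libraries far above it. In set 2 the log2 fold change was 1.96 (SE 0.0373, TREAT adjusted p = 1.53e-08). In set 1 it was -0.12 (SE 0.0467, 95% confidence interval -0.22 to -0.02, moderated adjusted p = 0.0611), which neither limma test called, while edgeR's quasi-likelihood test did.

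KRT18 (ENSG00000111057, chromosome 12, 52948871 to 52952906, plus strand) moved up in both sets. Its level was 372.2, 379.3 and 377.3 CPM in No gRNA, 651.8, 622.9 and 618.3 in set 1, and 1119, 1090 and 1099 in set 2. No library of one group overlapped another. The log2 fold change was 1.57 in set 2 (SE 0.0270, TREAT adjusted p = 6.86e-08). In set 1 it was 0.75 (SE 0.0296, moderated adjusted p = 8.47e-09), a rise that did not pass TREAT (adjusted p = 1). The ratio of KRT18 to KRT8 per length was 1.75 to 1.85 in No gRNA, 3.23 to 3.36 in set 1 and 1.34 to 1.40 in set 2, so that the partners kept different proportions in the sets. In WT the ratio was 1.15 to 1.23, so that No gRNA itself differed from WT.

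KRT7 and KRT19 rose in both sets by the moderated test and passed TREAT in neither. KRT7 was at 264.6, 229.6 and 241.0 CPM in No gRNA, 387.2, 392.9 and 363.3 in set 1, and 435.3, 412.3 and 443.9 in set 2. Its log2 fold change was 0.65 in set 1 (SE 0.0514, moderated adjusted p = 2.39e-06) and 0.84 in set 2 (SE 0.0502, moderated adjusted p = 1.04e-07). KRT19 was at 161.0 to 175.7 CPM in No gRNA, 255.9 to 273.2 in set 1 and 300.8 to 311.0 in set 2. These correspond to log2 fold changes of 0.67 (SE 0.0385, moderated adjusted p = 1.77e-07) and 0.89 (SE 0.0375, moderated adjusted p = 6.08e-09). For both genes every targeted library lay above every No gRNA library.

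In SUM159, where KRT19 was near 0, the other 3 luminal keratins had smaller differences from No gRNA, and the difference between the lines was itself tested for them. KRT18 was at 205.9, 220.1 and 205.8 CPM in No gRNA, 294.6, 316.1 and 325.2 with gRNA 4, and 307.5, 317.0 and 323.9 with All gRNA. All 6 targeted libraries were above all 3 No gRNA libraries. It rose by a log2 fold change of 0.56 with gRNA 4 (SE 0.0485, moderated adjusted p = 1.84e-05) and 0.59 with All gRNA (SE 0.0482, moderated adjusted p = 1.12e-05), with a TREAT adjusted p of 1 in both. KRT18 was the only one of the 10 keratins with a moderated adjusted p under 0.05 and a higher level in all 4 comparisons with No gRNA.

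KRT8 did not differ detectably in SUM159. Its libraries overlapped, at 145.1 to 150.0 CPM in No gRNA, 144.9 to 158.1 with gRNA 4 and 134.6 to 150.0 with All gRNA. The log2 fold change had a 95% confidence interval of -0.09 to 0.15 with gRNA 4 and of -0.19 to 0.05 with All gRNA. The 2 gRNA conditions parted on KRT7, which was at 805.1, 834.5 and 874.6 CPM in No gRNA. It was lower with gRNA 4 (605.7, 708.4 and 653.4 CPM, log2 fold change -0.37, SE 0.0576, moderated adjusted p = 0.00151). With All gRNA it was at 963.5, 917.4 and 908.4 CPM, above No gRNA in every library, but the log2 fold change of 0.15 (SE 0.0553) had a moderated adjusted p of 0.115. Compared directly, All gRNA exceeded gRNA 4 for KRT7 by 0.51 (SE 0.0568, moderated adjusted p = 0.00140, TREAT adjusted p = 1). KRT19 stayed at 0 to 1.98 counts in every targeted SUM159 library.

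**Figure D3:**
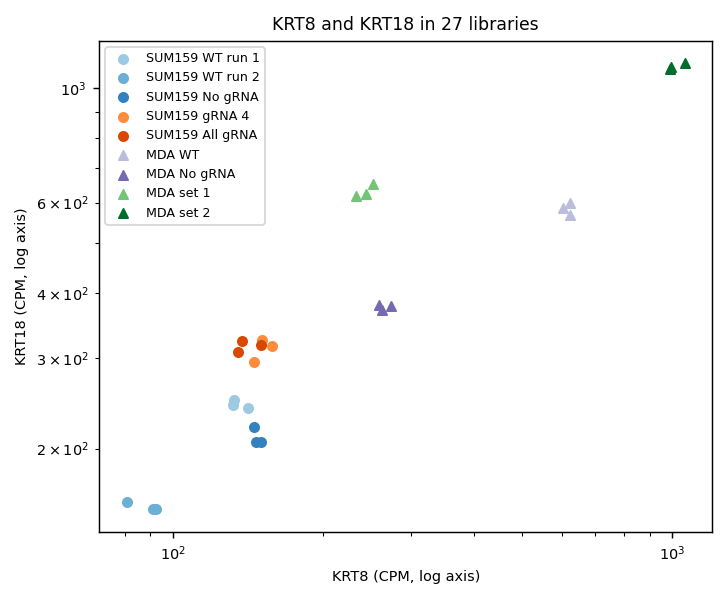
KRT8 is plotted against KRT18 (both as CPM on log axes) for all 27 libraries, with circles for SUM159 and triangles for MDA-MB-231. Set 1 lies above No gRNA at nearly the same KRT8, set 2 lies at the upper right at 988.5 CPM or more of each gene, and MDA-MB-231 WT lies well to the right of No gRNA.

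Counted over the luminal, basal and other keratins, TREAT called 0 of 8 tested members for All gRNA (0.396% of all genes were called), 0 of 8 for gRNA 4 (0.39%), 0 of 9 in set 1 (1.47%) and 3 of 9 in set 2 (4.14%). In the first 3 comparisons 0 members had an unadjusted TREAT p under 0.05, and edgeR's glmTreat and DESeq2 with the same threshold also called 0. Limma's moderated test against 0 called 2 members for All gRNA (10.8% of all genes), 2 for gRNA 4 (11%), 5 in set 1 (37.8%), all 5 higher (20.4% of all genes), and 7 in set 2 (52.4%). For edgeR's quasi-likelihood test against 0 the numbers were 1, 2, 6 and 7. The median log2 fold change of the tested members was 0.26, 0.21, 0.65 and 0.84 in the same order, and that of all genes tested was between -0.01 and 0.00. Without overlap between libraries were 4 of 8 members for All gRNA (29.7% of all genes), 5 of 8 for gRNA 4 (29.5%), 8 of 9 in set 1 (48.8%) and 8 of 9 in set 2 (59.7%). KRT14 is among the 5 for gRNA 4, at 5.81 to 15.6 counts in No gRNA. It passed the filter through the targeted groups, so that those 5 are not weighed against the share of all genes.

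**Figure D4:**
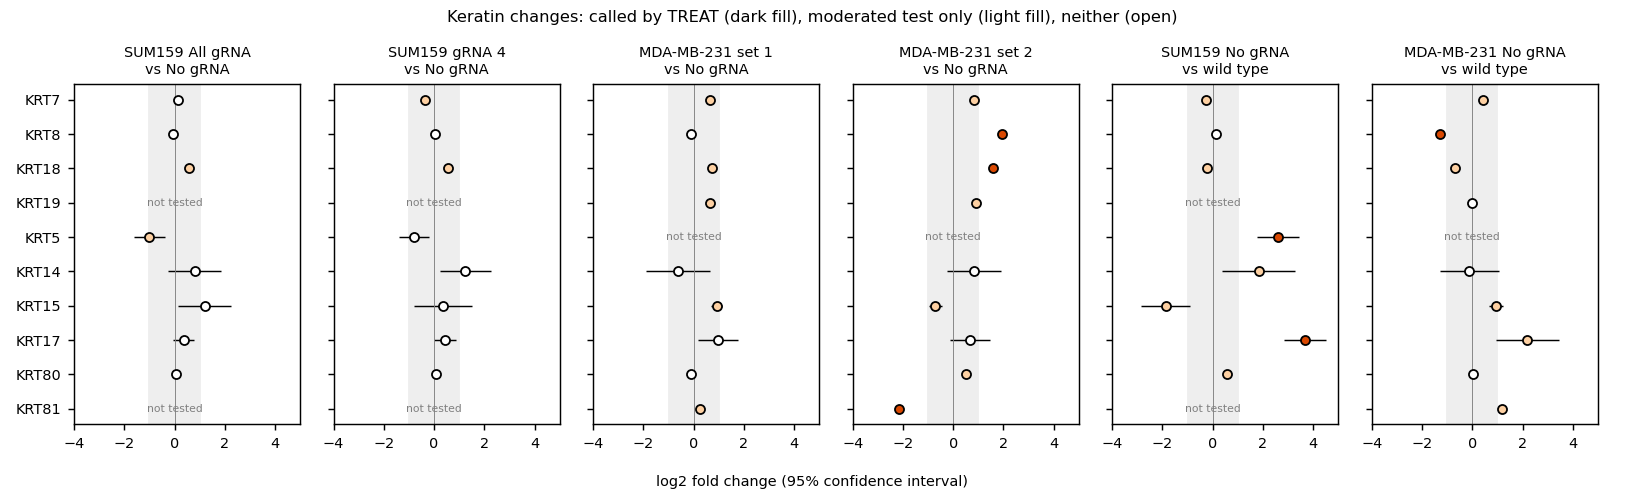
Log2 fold changes of the 10 keratins with 95% confidence intervals (lines, often shorter than the point) are shown for the 4 comparisons with No gRNA and for No gRNA against WT; the grey band spans -1 to 1. Dark points passed TREAT, light points the moderated test against 0 alone, and open points neither. The dark points are KRT8, KRT18 and KRT81 in set 2, KRT5 and KRT17 in SUM159 No gRNA, and KRT8 in MDA-MB-231 No gRNA.

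The basal keratins were low throughout, at 16.97 CPM or less in every library of the study. KRT5, the type II keratin of basal cells, was found in SUM159 of run 1 and had 0 counts in 11 of the 12 MDA-MB-231 libraries, the other, of set 2, having 2.94. In SUM159 it was at 7.08, 7.49 and 7.50 CPM in No gRNA. It was at 3.82, 5.16 and 3.84 CPM with gRNA 4 and at 3.59, 6.57 and 2.10 with All gRNA. All 6 targeted libraries were thus under the lowest No gRNA library. The log2 fold change was -0.80 with gRNA 4 (SE 0.280, moderated adjusted p = 0.0942) and -1.005 with All gRNA (SE 0.286, moderated adjusted p = 0.0439, TREAT adjusted p = 1). Against WT instead of No gRNA both values were positive, at 1.80 and 1.60.

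KRT14, the type I partner of KRT5, did not exceed 1.71 CPM in any library. Its largest log2 fold change against No gRNA was 1.24 with gRNA 4 in SUM159 (SE 0.470, moderated adjusted p = 0.121), at 5.81 to 15.6 counts in No gRNA and 19.9 to 29.0 with gRNA 4. No targeted group passed either limma test for KRT14. KRT17, a type I keratin induced in stressed and wounded epithelium, was at 2.86 to 3.53 CPM in SUM159 No gRNA, 3.70 to 4.90 with gRNA 4 and 3.29 to 4.69 with All gRNA. The differences were 0.43 (SE 0.195, moderated adjusted p = 0.191) and 0.36 (SE 0.195, moderated adjusted p = 0.277). In set 1 KRT17 reached 0.98 (SE 0.359, moderated adjusted p = 0.0513), with 18.9 to 37.6 counts per library against 15.1 to 17.4 in No gRNA.

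KRT15, a type I keratin of basal progenitor cells, went opposite ways in the MDA-MB-231 sets. It was at 8.42, 7.80 and 9.58 CPM in No gRNA, at 15.97, 16.97 and 15.44 in set 1, and at 5.31, 4.85 and 5.29 in set 2. All libraries of set 1 were above, and all of set 2 below, those of No gRNA. The log2 fold change was 0.92 in set 1 (SE 0.0958, moderated adjusted p = 2.11e-05) and -0.71 in set 2 (SE 0.119, moderated adjusted p = 3.86e-04). Between the sets TREAT called a difference of -1.63 for set 2 against set 1 (SE 0.111, adjusted p = 0.00410). In SUM159 KRT15 had at most 24.8 counts in any transduced library, and neither targeted group passed a limma test.

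KRT81, a type II hair keratin also found in breast cancer cells, was the third member called in set 2 and the only one called lower. It was at 99.0, 86.4 and 96.2 CPM in No gRNA, 116.9, 108.6 and 107.1 in set 1, and 21.2, 20.1 and 20.8 in set 2. Set 1 was thus above No gRNA in every library and set 2 far below it. The log2 fold change was -2.15 in set 2 (SE 0.0783, TREAT adjusted p = 1.35e-06) and 0.25 in set 1 (SE 0.0541, moderated adjusted p = 0.00388). In SUM159, where KRT81 was at 0 to 3.58 counts in all transduced libraries, it was not tested. KRT80 was at 78.1 to 80.5 CPM in MDA-MB-231 No gRNA, 73.8 to 75.8 in set 1 and 109.3 to 112.9 in set 2. It rose in set 2 by 0.50 (SE 0.0396, moderated adjusted p = 1.07e-06), and in set 1 its difference of -0.09 had a moderated adjusted p of 0.139. In SUM159 its differences were 0.06 with gRNA 4 and 0.05 with All gRNA, and neither passed a test.

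Set 2 was also compared with set 1 directly, since the labels do not settle which gRNAs each carries. TREAT called 3 of 9 tested members (3.07% of all genes), KRT8 higher in set 2 by 2.08 (SE 0.0392, TREAT adjusted p = 6.79e-09), KRT81 lower by -2.40 (SE 0.0779, TREAT adjusted p = 2.65e-07), and KRT15 as given above. The moderated test called 8 of 9 (51.5% of all genes), among them KRT18, which was higher in set 2 by 0.82 (SE 0.0243, moderated adjusted p = 2.67e-10). ZEB1 itself differed between the sets by -0.18 (SE 0.228, moderated adjusted p = 0.528), with overlapping libraries. Between All gRNA and gRNA 4 in SUM159, TREAT called 0 of 8 tested members, 0 had an unadjusted p under 0.05, and 0% of all genes were called. KRT7 was the 1 member called by limma's moderated test (0.944% of all genes), as by edgeR's quasi-likelihood test.

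Whether the mean change with targeting differed between the lines was tested as an interaction over 24 libraries. TREAT called 0 of 10 members, where 0.954% of 17182 genes were called. KRT5 was near 0 in MDA-MB-231, and KRT19 and KRT81 in SUM159, so that they passed the filter through the other line. Their interaction could hardly be estimated (SE 0.904, 0.696 and 0.758), and the lack of a call says nothing about them. At an unadjusted p under 0.05, TREAT called 0 members and glmTreat 1, and DESeq2 with the same threshold called 0. The moderated test called 3 (25.4% of all genes), all luminal and all with a positive value for MDA-MB-231 minus SUM159 (12.4% of all genes), at 0.91 for KRT8, 0.83 for KRT7 and 0.57 for KRT18 (moderated adjusted p = 5.24e-10, 4.42e-08 and 1.62e-08). In either direction, the count of 3 in 10 is near the share of all genes and is not read as a trait of keratins. The KRT8 value averages sets with opposite signs. Line and run cannot be told apart in these values.

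No gRNA cells differed from untransduced WT cells in several keratins, so the choice of control matters for this family. In SUM159, TREAT called 2 of 8 tested members (1.53% of all genes), both basal and both higher with the vector, as were 1.04% of all genes. KRT17 was at 0.348, 0.177 and 0.188 CPM in WT of run 1 and at 3.26, 2.86 and 3.53 in No gRNA, a log2 fold change of 3.67 (SE 0.376, TREAT adjusted p = 0.00144). It passed the filter only through the transduced groups, with 3.67 to 7.32 counts per library in WT. Its size rests on these few counts, and its call is not weighed against the share of all genes. KRT5 was at 1.12, 1.31 and 1.13 CPM in WT and rose by 2.60 in No gRNA (SE 0.374, TREAT adjusted p = 0.0414). The KRT5 call was lost when any 1 of the 6 libraries was left out (TREAT adjusted p = 0.0868 to 0.204), while its value stayed between 2.56 and 2.67.

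By the moderated test, which called 7 of these 8 members (42.9% of all genes), KRT80 also rose in SUM159 No gRNA (0.56, moderated adjusted p = 2.97e-06) and KRT14 did so at few counts (1.83, moderated adjusted p = 0.0428). The 7 include KRT14 and KRT17, which passed the filter only through transduced groups. This count is therefore not weighed against the share of all genes. With KRT14, KRT16 and KRT17 summed, the value was 3.11 and passed TREAT (adjusted p = 6.18e-04), a sum that contains the called KRT17. The luminal KRT7 and KRT18 fell by 0.27 and 0.22 on the log2 scale (moderated adjusted p = 0.00184 and 0.00352), and KRT15 by 1.88 (moderated adjusted p = 0.00564). KRT17 against WT was 4.11 with gRNA 4 and 4.03 with All gRNA, and TREAT called both, where it called 2.46% and 2.3% of all genes. Both sizes rest on the same few WT counts, and the calls are not weighed against those shares. By these values, most of the distance of targeted cells from WT in KRT17 was also present in No gRNA cells.

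In MDA-MB-231, TREAT called 1 of 9 tested members between No gRNA and WT (3.6% of all genes). KRT8 was at 622.6, 602.3 and 623.4 CPM in WT, far above its level in No gRNA, with a log2 fold change of -1.27 (SE 0.0396, TREAT adjusted p = 8.43e-04). KRT18 was lower in No gRNA by -0.69 (SE 0.0296, moderated adjusted p = 5.50e-09), from 568.8 to 599.3 CPM in WT. KRT81 was higher by 1.17 (SE 0.0658, moderated adjusted p = 4.98e-08, TREAT adjusted p = 0.262), from 39.3 to 41.0 CPM in WT. It passed TREAT when No gRNA replicate 2 was left out (adjusted p = 0.0436). The moderated test called 6 of 9 members (53.8% of all genes), the others being KRT7 (0.41), KRT15 (0.96) and KRT17 (2.19), all higher in No gRNA. KRT17 had 2.03 to 5.58 counts per library in WT and passed the filter only through the transduced groups. The 6 calls are therefore not weighed against the share of all genes.

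Measured against WT, the calls of set 2 were therefore lost: KRT8 was 0.69, KRT18 0.88 and KRT81 -0.99, none of which passed TREAT, and KRT7 was called at 1.25 (1.44% of all genes were called). In set 1, which had no call against No gRNA, 4 members were called against WT, with KRT8 at -1.39, KRT15 at 1.87, KRT17 at 3.17 and KRT81 at 1.41 (8.42% of all genes were called). The KRT17 value rests on its few WT counts. As KRT17 passed the filter only through the transduced groups, the 4 calls are not weighed against the share of all genes. Set 1 thus lay on the No gRNA side of WT for KRT8 and KRT81, and set 2 on the other side for both. For KRT18, set 1 was at 618.3 to 651.8 CPM and WT at 568.8 to 599.3, a difference that TREAT did not call. All these comparisons share the WT or the No gRNA libraries.

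SUM159 WT cells were sequenced in both runs, which shows how far keratins can differ between samples with the same label. TREAT called 4 of 7 tested members between run 2 and run 1 (6.65% of all genes). Of these, KRT5, KRT15 and KRT81 passed the filter only through the run in which they were high. The count of 4 is therefore not weighed against the share of all genes. KRT80 was at 136.9 to 140.8 CPM in run 1 and at 472.2 to 477.6 in run 2, a log2 fold change of 1.78 (SE 0.0340, TREAT adjusted p = 2.02e-05). KRT81 had 1.06 to 5.16 counts in run 1 and 60.3 to 66.0 in run 2 (log2 fold change 5.08, TREAT adjusted p = 0.00110), a size that rests on the few counts of run 1. KRT5 was at 22.2 to 27.2 counts in run 1 and at 0 to 0.463 in run 2, at least 6.27-fold lower. KRT15 was at 25.5 to 34.1 counts and 0 to 3.74 (log2 fold change -4.51, TREAT adjusted p = 0.0164), a call that was lost without WT replicate 2 of run 1 (TREAT adjusted p = 0.0507), or without WT replicate 2 or 3 of run 2 (0.0983 and 0.0981). KRT8 and KRT18 were lower in run 2 by -0.62 and -0.66 (moderated adjusted p = 1.73e-04 and 1.19e-05), and KRT7 did not differ detectably (0.02, 95% confidence interval -0.07 to 0.11). What else differed between the cultures of the 2 runs is not given in the sources used here.

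The summed level of the 10 keratins per length followed the luminal members. In MDA-MB-231 it was 1028 ± 12.4 CPM per kb in WT (SD, n = 3), 761.3 ± 17.1 in No gRNA and 1096 ± 34.0 in set 1, and it was highest in set 2, at 1877 ± 41.9. The groups did not overlap. In SUM159 it was 905.3 ± 28.2 in WT of run 1, 806.5 ± 19.9 in No gRNA, 935.6 ± 10.8 with All gRNA and 771.1 ± 46.7 with gRNA 4, and the libraries of No gRNA and gRNA 4 overlapped. Over all keratins, KRT6A and KRT75 included, the order in SUM159 was different, at 986.4 to 1024 CPM per kb in No gRNA, 1072 to 1186 with gRNA 4 and 1337 to 1350 with All gRNA, without overlap. The share of the 10 genes in all keratin signal was 79.6 to 80.6% in No gRNA, 65.8 to 69.3% with gRNA 4 and 68.5 to 70.8% with All gRNA. The ratio of type II to type I within the 10 genes was 4.12 to 4.56 in SUM159 No gRNA, 2.33 to 2.57 with gRNA 4 and 2.97 to 3.27 with All gRNA, values given as descriptions without a test. Over all keratins it was 5.05 to 5.53, 3.87 to 3.98 and 4.602 to 4.827 in the same groups. In MDA-MB-231 the ratio within the 10 genes was 0.903 to 0.982 in No gRNA, 0.678 to 0.703 in set 1 and 0.853 to 0.882 in set 2.

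Of 45 other keratins, 6 could be tested in SUM159 and 2 in MDA-MB-231. KRT6A, a type II keratin of activated and stratified epithelium, was called higher in SUM159 in both comparisons. It was at 43.2, 52.8 and 51.8 CPM in No gRNA, 457.5, 446.4 and 553.0 with gRNA 4, and 519.4, 542.6 and 590.4 with All gRNA. The log2 fold changes were 3.29 (SE 0.146, TREAT adjusted p = 5.99e-06) and 3.49 (SE 0.145, TREAT adjusted p = 5.47e-06). It was also called higher in No gRNA than in WT (1.92, SE 0.222, TREAT adjusted p = 0.0498), where it was at 10.4 to 19.0 CPM, and had 0 counts in all MDA-MB-231 libraries. KRT75, a type II hair follicle keratin, was at 121.4 to 413.7 CPM over the SUM159 libraries and at 0 to 0.0587 CPM in MDA-MB-231. Its difference from No gRNA was -0.15 with gRNA 4 (moderated adjusted p = 0.0438) and -0.09 with All gRNA (moderated adjusted p = 0.201).

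In MDA-MB-231 the hair keratin KRT86 was lower in set 2 by -2.63 (SE 0.155, TREAT adjusted p = 2.51e-05), at 14.2 to 17.5 CPM in No gRNA and 2.35 to 2.81 in set 2. KRT86 and KRT81 are near-identical in parts of their sequence, and KRT81 lies within the bounds of KRT86 on the opposite strand, so that reads may be split between them. Together, KRT83 and KRT86 held 7.83 to 17.98% as many counts as KRT81 in MDA-MB-231, and 54.3 to 58.5% as many in SUM159 WT of run 2. With KRT81, KRT83 and KRT86 summed, the keratin calls of set 2 numbered 3 as before.

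Genes that anchor or organise keratin filaments were counted beside the keratins. Of 15 such linkers, 12 were tested in each line. TREAT called 1 higher for All gRNA, 1 for gRNA 4, 5 in set 1 and 5 in set 2, and 0 lower. Over all genes it called 0.396%, 0.39%, 1.47% and 4.14% in the same order, in either direction. The median log2 fold change of the tested linkers was 0.45, 0.45, 1.11 and 1.09, against -0.01 to 0.00 for all genes tested. This list and the lists below were chosen with earlier results of these data known. Their counts and medians are therefore not weighed against those of all genes. DSP, desmoplakin, which ties keratins to the desmosome, was called in all 4 comparisons. PKP3, a desmosomal plaque protein, was called in both MDA-MB-231 sets, at 2.07 (SE 0.0693, TREAT adjusted p = 1.95e-06) in set 1 and 2.43 (SE 0.0676, TREAT adjusted p = 6.86e-08) in set 2. FAM83H, which is known to organise keratin filaments, was called at 2.31 and 2.92 (TREAT adjusted p = 4.78e-06 and 6.86e-08), and it was also higher in No gRNA than in WT by 2.03 (TREAT adjusted p = 0.00210). The keratin-binding TCHP was called in set 2 at 1.56 (TREAT adjusted p = 0.0303), and it was lower in No gRNA than in WT by -1.78 (TREAT adjusted p = 0.00391). DSC2 was called in both sets and DSG2 in set 1, both being desmosomal cadherins.

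Among 13 other intermediate filament genes, TREAT called 0 for All gRNA, 0 for gRNA 4 and 0 in set 1, and limma's moderated test called 0, 0 and 6 (all 6 lower) of 6, 6 and 7 tested. In set 2 the moderated test called 4 higher and 2 lower of 7, and TREAT called the nuclear lamin LMNB1 higher, by 1.76 (SE 0.105, adjusted p = 5.32e-04), and it was lower in No gRNA than in WT by -1.80 (TREAT adjusted p = 4.04e-04). Over all genes the moderated test called 10.8%, 11%, 37.8% and 52.4% in these 4 comparisons. Of 12 transcription factors of simple and stratified epithelium, EHF was called higher in SUM159, by 3.14 with All gRNA (SE 0.315, TREAT adjusted p = 0.00589) and 3.70 with gRNA 4 (SE 0.310, TREAT adjusted p = 6.42e-04). TREAT called 0 of these factors in either MDA-MB-231 set, where the moderated test called 4 higher and 1 lower in set 1 and 2 higher and 3 lower in set 2, each of 9 tested (37.8% and 52.4% of all genes were called).

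The genes whose log2 CPM followed each of 9 keratins most closely over the 27 libraries, among 14048 genes with a mean of at least 1 CPM, were found as a description. KRT14 was below that mean and was left out. The libraries share lines and runs, which set much of each profile. KRT18 was most like TSPAN14 (Pearson r = 0.985) and IER5 (0.950), and KRT8 most like HASPIN (0.980) and ALKBH5 (0.978). KRT19 was most like AFAP1-AS1 (0.996) and PLCB4 (0.996), KRT81 most like CCN1 (0.983) and NAXD (0.978), and KRT7 most like PTGFRN (0.970) and ELOA (0.968). KRT80 was most like XAGE2 (0.978) and IRAK1 (0.972), KRT15 most like PHLDA1 (0.967) and PLAU (0.966), KRT5 most like TREM2 (0.967) and RPL7 (0.963), and KRT17 most like FAM8A1 (0.892) and ZNF204P (0.892). None of these 9 had a keratin among its 2 nearest genes.

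How far each keratin can be told from its copies was read from the transcript sequences, as the share of 50-base windows of the canonical transcript that occur on either strand in transcripts of another gene. The share was 52.8% for KRT18, 44.6% for KRT81 and 39.2% for KRT8. It was 24.2% for KRT14, 18.3% for KRT17, 11.7% for KRT7 and 4.52% for KRT5. The lowest shares were 1.79% for KRT19, 1.02% for KRT15 and 0.418% for KRT80. Much of the KRT18 share was with KRT8 (23.9% of windows), as the annotated bounds of both genes overlap on opposite strands, and the strandedness of the libraries is not stated. Processed copies of KRT8 held 0.333 to 6.59% as many counts as KRT8 itself, and those of KRT18 0.0798 to 0.437% as many as KRT18. KRT7-AS, antisense to KRT7, held 0.213 to 0.789% as many as KRT7. Copies of KRT17 held up to 59.9% as many counts as KRT17 in MDA-MB-231 No gRNA libraries, where KRT17 had 15.1 to 17.4 counts. KRT8, KRT14, KRT17, KRT18 and KRT81 are uncertain in this sense.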

How the data were processed

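RNA of the 27 libraries was sequenced as single-end 50 base reads. The authors quantified transcripts with Salmon and deposited estimated counts per gene, scaled by transcript length through tximport. The Salmon version, annotation and strandedness are not given in the sources used here. Counts entered voom and limma as deposited and were rounded for edgeR's quasi-likelihood test and glmTreat, for DESeq2 and for its size factors. Of 57165 gene identifiers, 56347 had a symbol in the table used. Genes passed edgeR's filterByExpr (minimum count 10), and TMM, voom and limma were applied to the 12 libraries of a line and run, with TREAT at a log2 fold change of 1 and Benjamini-Hochberg adjusted p-values (threshold 0.05). WT lines, SUM159 runs and the interaction had fits of their own. R 4.3.3, limma 3.58.1, edgeR 4.0.16 and DESeq2 1.42.0 were used, and the fits were tested on simulated data. Printed CPM used TMM over all libraries, with no test. Alternatives covered other tests, scalings, filters, sample sets, a replicate block, left-out libraries, WT as control and summed copies. Totals of 15461200 to 21473757 bound precision, and intervals and floors cover counting error only where no replicate spread is given. Each of the 10 genes was named, other genes only where TREAT called them, where they share sequence with a member, where they were nearest in profile, or as the targeted gene and markers of the lines. Members and lists were chosen with earlier results of these data known.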

Additional observations from a re-analysis of the deposited data

Results flagged for a closer look

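For 3 keratins of 10 tested, the mean log2 fold change with ZEB1 targeting differed between the lines in the test of the interaction, limma's moderated test over 24 libraries. The same test called 25.4% of all 17182 genes, and 12.4% with a positive value. The count of 3 in 10 is near the first of these shares and is not read as a trait of keratins. KRT5, KRT19 and KRT81 are among the 10, and their interaction could hardly be estimated. MDA-MB-231 minus SUM159 was 0.91 for KRT8 (standard error 0.0595, moderated adjusted p = 5.24e-10), 0.83 for KRT7 (standard error 0.0726, moderated adjusted p = 4.42e-08) and 0.57 for KRT18 (standard error 0.0464, moderated adjusted p = 1.62e-08). None of the 3 passed TREAT at a log2 fold change of 1. The KRT8 value rests on set 2 (1.96 against No gRNA), since set 1 was at -0.12. All SUM159 libraries of this test are from run 1 and all MDA-MB-231 libraries from run 2, so that line and run cannot be told apart.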

How the results depend on the processing

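Under the alternatives, 1723 of 1851 member values kept their direction and their side of the TREAT threshold, 13 were no longer called, 82 were newly called and 33 changed sign, 0 of these among called values. The cause of these changes was not tested unless the alternative itself gives it, such as a test against 0. The comparisons are taken in the order All gRNA, gRNA 4, set 1 and set 2 against No gRNA, No gRNA against WT in SUM159 and in MDA-MB-231, All gRNA against gRNA 4, set 2 against set 1, and the interaction. Limma's moderated test against 0 called 2, 2, 5, 7, 7, 6, 1, 8 and 3 members, and edgeR's quasi-likelihood test called 1, 2, 6, 7, 6, 6, 1, 7 and 3. With a log2 fold change beyond 1 or -1 also required, the moderated test called 1 member for All gRNA and 4 and 3 for No gRNA against WT in SUM159 and MDA-MB-231, where glmTreat called 2 in MDA-MB-231. With WT as control, 1, 1, 4 and 1 members were called in the first 4 comparisons. With a mean of at least 1 CPM required, 2 were called between the SUM159 runs.

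Leaving out 1 library gave 1 to 1 calls for SUM159 No gRNA against WT, 1 to 2 for MDA-MB-231 No gRNA against WT, 7 to 8 between WT lines and 3 to 4 between runs, and the main count in the other comparisons. The replicate numbers did not pair samples: 0 of 36 same-numbered pairs had correlated deviations over 0.1 (-0.0826 to 0.0576). With the replicate block 1 call was lost, KRT15 between runs (-4.43, TREAT adjusted p = 0.0523).

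Summed levels per length moved to 820, 726, 667, 833, 763, 616, 895, 1409 and 857 CPM per kb with the longest transcript, in the order SUM159 WT of run 1, No gRNA, gRNA 4, All gRNA, MDA-MB-231 WT, No gRNA, set 1, set 2 and SUM159 WT of run 2. With library totals they moved to 894 for All gRNA, 1094 and 796 for MDA-MB-231 WT and No gRNA, and 923 for SUM159 WT of run 2.

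Signs changed with WT as control for KRT5 (1.60), KRT7 (-0.12), KRT8 (0.0494) and KRT15 (-0.68) under All gRNA, KRT5 (1.80) and KRT15 (-1.52) under gRNA 4, and KRT15 (0.25) in set 2. With library totals KRT8 under gRNA 4 was -0.00918, and with copies summed KRT14 was 0.49 in set 1 and 1.05 in MDA-MB-231 No gRNA against WT. KRT19 in that comparison was 0.0134 with DESeq2 at the threshold, 0.0121 with size factors, 0.0162 with library totals, 0.00637 with a mean of at least 1 CPM, 0.0416 with all 27 libraries and 0.0235 without No gRNA replicate 2. The KRT19 interaction was -0.59 with both edgeR tests and -0.14 with DESeq2. With 1 library left out, 3 ranges against No gRNA spanned 0, from -0.00335 to 0.0564 for KRT8 and from -0.17 to 0.86 for KRT15 under gRNA 4, and from -1.19 to 0.0455 for KRT14 in set 1. For MDA-MB-231 No gRNA against WT they spanned -0.51 to 0.15 for KRT14 (also 0.00695) and -0.0452 to 0.0235 for KRT19. Between All gRNA and gRNA 4 they spanned -0.61 to 0.21 for KRT5, -0.19 to 0.0932 for KRT17, -0.00898 to 0.0610 for KRT18 and -0.0575 to 0.0191 for KRT80. For KRT17 between sets they spanned -0.57 to 0.0302, and for KRT7 between runs -0.0062 to 0.0536. Low counts kept KRT19 and KRT81 in SUM159 and KRT5 in MDA-MB-231 out of the tests of targeting within a line.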
